A study of Mus musculus with 23 samples.

Results

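The signal-regulatory proteins (SIRPs) are cell-surface receptors of myeloid cells, and the mouse genes *Sirpa*, *Sirpb1a*, *Sirpb1b* and *Sirpb1c* are described here. These 4 genes, of 21878 listed for sorted neutrophils, were found by their NCBI gene identifiers. They were chosen by their measured FPKM, with results of these data known. Among lung neutrophils *Sirpb1b* was among the genes with the strongest decrease in *Piezo1*-cKO mice, so the values of that contrast are given as a description, without a test. *Sirpb1c* stands in the neutrophil tables as LOC100038947, described as signal-regulatory protein beta 1-like, and was matched by its identifier 100038947. All 4 genes were also found in the whole-lung table of 55335 genes, and all 4 passed the filter on low values in every comparison.

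SIRPα, encoded by *Sirpa*, is an inhibitory receptor: when it binds CD47 on another cell, the tyrosine motifs of its cytoplasmic tail recruit the phosphatases SHP-1 and SHP-2, which restrain phagocytosis. The SIRPβ1 proteins have a closely related extracellular part but a short tail, and they signal through the adaptor DAP12 (*Tyrobp*) and the kinase SYK. Neutrophils carry both kinds of receptor, so an inhibitory and an activating branch of the same family can be read side by side in these libraries.

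Neutrophils were sorted as CD45+CD11b+Ly6G+ cells. In the tissue comparison they came from perfused lung, peripheral blood (PB) and bone marrow (BM) of WT mice, with 3 libraries per tissue. The study's methods describe digestion of lung with collagenase, but no digestion of PB or BM. They also describe a negative selection kit before sorting for PB and lung, but name no such step for BM in the RNA-Seq. Location and preparation therefore cannot be told apart where tissues are compared. The Piezo1 experiment used 2 tissues, lung and PB, and 2 genotypes, WT and *Piezo1*-cKO, with 2 libraries per group. *Piezo1*-cKO mice carry *Piezo1* fl/fl and *Vav1-iCre*, whose promoter is active throughout the blood cell lineages, so the deletion is not limited to neutrophils. The third experiment measured whole lungs labelled as control or PMN deletion (3 each), which the study's methods describe as mice given an isotype control or an anti-Ly6G antibody. According to the methods, mice were C57BL/6J or bred lines of 7 to 12 weeks and either sex. The study reports depletion at an early age just before its whole-lung RNA-Seq, so the age of those mice is uncertain. The labels do not say whether libraries of a group came from separate mice. For the tissue comparison, the study's figure legend counts replicates as mice, and its statistics section describes such counts as biologically independent. No such count is given for the RNA-Seq of the other experiments, so the spread between their libraries may be technical.

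Read pairs on genes were recovered from the deposited FPKM. They numbered 16480193 to 19321025 in libraries of the tissue comparison, and 9608333 to 15014127 in those of the Piezo1 experiment. The depth of the whole-lung libraries is unknown. *Piezo1* itself had 4 to 8 reads per lung library and 3 to 10 per PB library of the Piezo1 experiment, and these reads did not separate the genotypes. *Ly6g*, the sorted marker, was present in all 17 neutrophil libraries, from 50.6 to 781 FPKM. In whole lung *Ly6g* was at most 0.577 FPKM and overlapped between groups, whereas the summed FPKM of the neutrophil marker list was 205 to 262 in control and 43.0 to 124 in PMN deletion lungs.

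*Sirpa* lies on the plus strand of chromosome 2 (GRCm38, chr2:129592835-129632228). The *Sirpb1* genes lie together on the minus strand of chromosome 3, *Sirpb1a* at chr3:15371653-15426520, *Sirpb1b* at chr3:15495751-15575065 and *Sirpb1c* at chr3:15795145-15848528, and *Sirpb1b* overlaps the gene Gm37468. Each *Sirpb1* gene has a coding sequence of 1173 bases, and these differ at 30 positions between *Sirpb1a* and *Sirpb1b* (97.4% identity), at 31 between *Sirpb1a* and *Sirpb1c* (97.4%) and at 20 between *Sirpb1b* and *Sirpb1c* (98.3%). Each read of a pair is 150 bases long, so such identity bears on how well the copies can be told apart. The 150-base stretch of exon 2 that differs most among the 3 genes (coding bases 146 to 295) is shown for that reason, with the 13 positions that differ in any gene in capitals.
Sirpb1a, chr3:15416972-15417121 (-): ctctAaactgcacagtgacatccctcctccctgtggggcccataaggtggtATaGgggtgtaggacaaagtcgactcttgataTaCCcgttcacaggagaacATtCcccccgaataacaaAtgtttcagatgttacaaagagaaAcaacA
Sirpb1b, chr3:15548726-15548875 (-): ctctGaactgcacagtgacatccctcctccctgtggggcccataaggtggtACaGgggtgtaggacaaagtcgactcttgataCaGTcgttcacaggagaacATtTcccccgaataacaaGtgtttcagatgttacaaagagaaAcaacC
Sirpb1c, chr3:15838744-15838893 (-): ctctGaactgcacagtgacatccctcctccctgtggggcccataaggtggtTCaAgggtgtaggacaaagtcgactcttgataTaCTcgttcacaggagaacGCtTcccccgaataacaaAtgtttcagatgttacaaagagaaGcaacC

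The stretch of exon 3 that differs least (coding bases 595 to 744) is shown as the opposite case, with its 1 differing position in capitals.
Sirpb1a, chr3:15411193-15411342 (-): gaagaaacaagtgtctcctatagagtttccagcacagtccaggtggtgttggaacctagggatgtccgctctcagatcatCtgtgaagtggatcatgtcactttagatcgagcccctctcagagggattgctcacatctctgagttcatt
Sirpb1b, chr3:15542940-15543089 (-): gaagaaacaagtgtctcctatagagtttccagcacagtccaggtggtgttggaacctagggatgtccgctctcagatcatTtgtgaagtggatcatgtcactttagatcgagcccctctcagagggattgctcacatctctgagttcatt

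In this second stretch *Sirpb1a* and *Sirpb1c* (chr3:15832930-15833079) have the same sequence. Over the annotated transcripts, 12.8% of 150-base windows of *Sirpb1a*, 28.1% of *Sirpb1b* and 20.6% of *Sirpb1c* also occur in another gene, against 0% of *Sirpa*. How reads from such windows were assigned is not given in the sources used here, and the other read of a pair may still tell the copies apart. Levels of single *Sirpb1* genes are therefore uncertain to an unknown extent, and the sum of the 3 genes is given beside them.

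In the tissue comparison the inhibitory and the activating members had different orders of level. *Sirpa* was lowest in lung neutrophils, whereas each *Sirpb1* gene was lowest in BM. The *Sirpa* level was 190, 193 and 193 FPKM in BM, 233, 232 and 227 in PB and 99.3, 99.3 and 96.5 in lung. The order was PB, BM, lung, and no library of one tissue overlapped another. Means were 192 ± 1.82 (SD, n = 3) in BM, 231 ± 3.22 in PB and 98.4 ± 1.63 in lung.

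*Sirpb1b*, the most abundant of the activating genes, was at 53.3, 54.0 and 53.2 FPKM in BM. Its 3 PB libraries were at 203, 202 and 217 and its lung libraries at 163, 155 and 143. *Sirpb1c* was at 15.3, 17.1 and 12.6 FPKM in BM, at 71.2, 65.7 and 78.8 in PB and at 49.9, 46.0 and 45.3 in lung. *Sirpb1a*, the least abundant, was at 7.11, 6.64 and 6.90 in BM, at 34.6, 34.8 and 36.6 in PB and at 23.7, 24.1 and 20.2 in lung. All 3 genes therefore had the order PB, lung, BM, with no overlap between tissues.

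**Figure D1:**
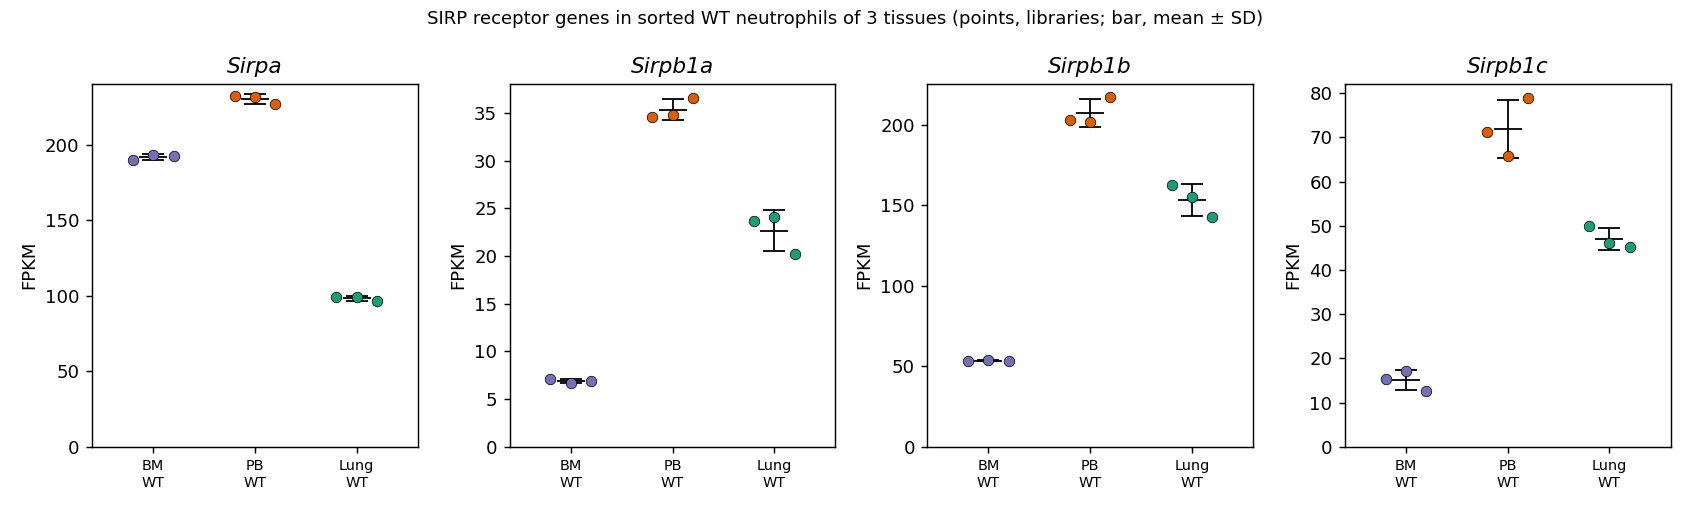
FPKM (y axis) of each SIRP receptor gene in the 9 WT libraries, by tissue (x axis). Points are libraries, and bars are the mean ± SD of 3. *Sirpa* is lowest in lung (96.5 to 99.3), and *Sirpb1a*, *Sirpb1b* and *Sirpb1c* are lowest in BM.

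PB against BM compares neutrophils in the blood with those at the site where they are made, which may differ in preparation as well as in location. All 3 *Sirpb1* genes were called higher in PB (limma, adjusted p below 0.05 with a log2 fold change beyond 1 in either direction), where 7.85% of all genes tested were called higher and 22% in either direction. *Sirpb1a* was 5.13-fold higher by mean FPKM, and on the log2(FPKM + 1) scale the difference was 2.20 ± 0.06 (SE; limma adjusted p = 2.6e-08). For *Sirpb1c* it was 4.79-fold and 2.19 ± 0.11 (limma adjusted p = 7.9e-07), and for *Sirpb1b* 3.87-fold and 1.93 ± 0.05 (limma adjusted p = 2.9e-08). *Sirpa* was 1.20-fold higher, a log2 difference of 0.26 ± 0.05 (limma adjusted p = 0.0011), and did not reach the fold threshold. All 4 genes passed on the adjusted p alone, as did 73.1% of genes, and none overlapped between PB and BM, as for 76.8%. The median over the 4 genes was 2.06, against -0.12 over all genes.

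Lung against BM used the same BM libraries. All 3 *Sirpb1* genes were again called higher, where 9.86% of genes were called higher and 45.9% in either direction. *Sirpb1a* was 3.29-fold higher in lung than in BM, *Sirpb1c* 3.14-fold and *Sirpb1b* 2.87-fold. The log2 differences were 1.58 ± 0.07, 1.60 ± 0.09 and 1.50 ± 0.04, each with a limma adjusted p of at most 4.6e-08. *Sirpa* was lower in lung, by a mean of 1.95-fold in FPKM (log2 difference -0.96 ± 0.02, limma adjusted p = 8.3e-11), just short of the threshold. All 4 genes passed on the adjusted p alone, as did 92.6% of genes, and none overlapped between lung and BM, as for 92.9%. The median of all genes was itself -0.70 here, so *Sirpa* stood 0.26 below it (relative log2 difference -0.26) and the *Sirpb1* genes 2.20 to 2.30 above it.

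Lung against PB compares neutrophils taken from perfused lung with circulating ones, which differ in preparation as well as in location. Only *Sirpa* was called among the 4 genes, lower in lung, where 19.5% of genes were called lower and 27.2% in either direction. Its level was 2.34-fold higher in PB (log2 difference -1.22 ± 0.05, limma adjusted p = 1.3e-07). The *Sirpb1* genes were lower in lung by less: -0.62 ± 0.07 for *Sirpb1a*, -0.60 ± 0.08 for *Sirpb1c* and -0.43 ± 0.06 for *Sirpb1b* (limma adjusted p at most 0.00032). All 4 genes passed on the adjusted p alone, as did 85.5% of genes, and none overlapped between lung and PB, as for 86.2%. The median of all genes was -0.54. Relative to it *Sirpa* was at -0.68, *Sirpb1a* at -0.08, *Sirpb1c* at -0.06 and *Sirpb1b* at 0.10. When FPKM were rescaled by the median ratio of genes, *Sirpa* was at -0.60 and no longer called, and *Sirpb1b* turned to 0.19 and *Sirpb1c* to 0.014.

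**Figure D2:**
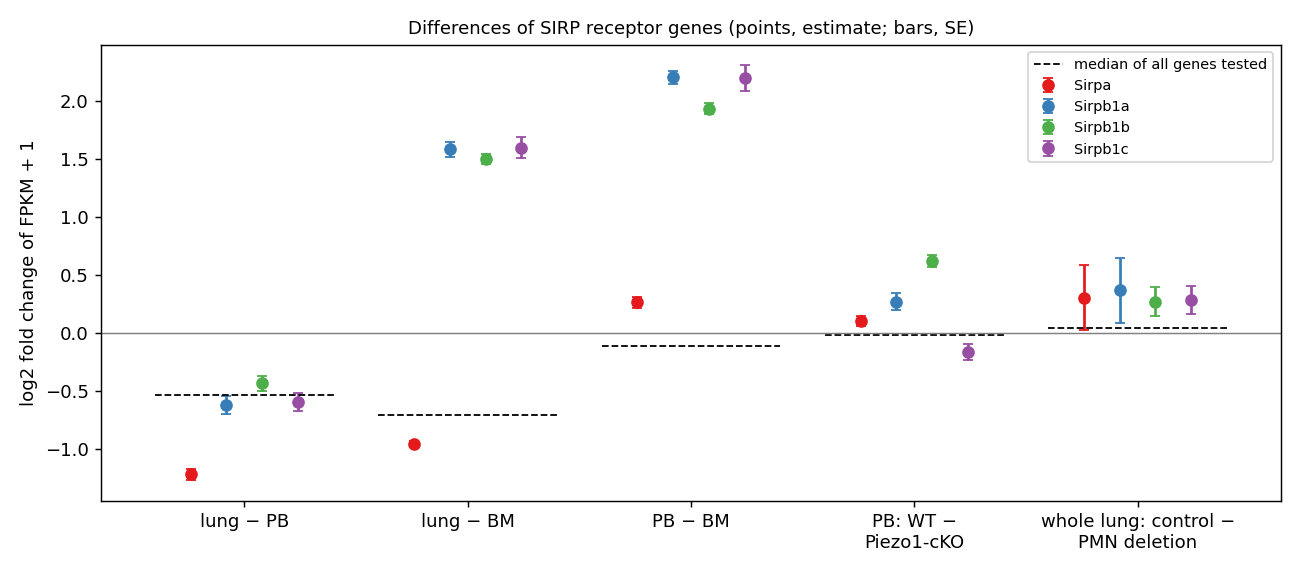
Log2 difference of FPKM + 1 (y axis, first group minus second, point and SE) of each SIRP receptor gene in the 5 tested comparisons (x axis), with the median of all genes tested as a dashed line. The *Sirpb1* genes stand 1.50 or more above 0 against BM, whereas against PB they lie near the dashed line.

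Markers of other cells were examined because dendritic cells and macrophages also express *Sirpa*. The summed FPKM of 8 alveolar macrophage markers was 1.55 to 2.21 in lung and 0.682 to 1.52 in PB. It was 59.1 to 66.3 in BM, where 1 of the 8 genes had a mean of at least 1 FPKM. The 8 dendritic cell markers summed to 139 to 148 in lung, 11.7 to 16.5 in PB and 8.83 to 10.6 in BM, and *Xcr1* was at 0 in all 9 libraries. The 8 monocyte and macrophage markers, of which 2 had a mean of at least 1 FPKM in lung and PB and 4 in BM, had summed levels of 156 to 172 in PB, 125 to 129 in lung and 59.5 to 63.7 in BM. This is the order PB, lung, BM of the *Sirpb1* genes, also without overlap. The 8 neutrophil markers had their lowest sums in lung (43299 to 47504), higher ones in PB (56683 to 73299) and the highest in BM (127968 to 145878). The part of other cells in these differences was not tested.

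Ratios within a library do not depend on its scaling. *Sirpa* over *Sirpb1b* in FPKM was 3.56, 3.58 and 3.63 in BM, 1.15, 1.15 and 1.04 in PB and 0.611, 0.640 and 0.676 in lung. The balance thus ran from *Sirpa* in BM, through near equality in PB, to *Sirpb1b* in lung, with no overlap between tissues. The sum of the 3 *Sirpb1* genes was 72.7 to 77.7 FPKM in BM, 302 to 333 in PB and 208 to 236 in lung. It thus had the same order PB, lung, BM as the single genes. If reads that match several copies were dropped, they are missing from this sum as well. *Sirpb1b* made up 69.5% to 73.2% of that sum in BM, 65.3% to 66.7% in PB and 68.5% to 68.9% in lung.

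In the Piezo1 experiment the lung libraries are treated as the values that chose these genes, and they are given without a test. Which contrast chose the genes is not recorded, so the tests of the other contrasts may not be independent of the choice. *Sirpb1b* was at 165 and 171 FPKM in WT lung and at 54.8 and 60.5 in *Piezo1*-cKO lung, a 2.92-fold higher mean in WT. It ranked 2 among 6434 genes by the log2 difference (1.53). *Sirpb1a* was at 19.1 and 19.9 in WT and 13.1 and 12.9 in *Piezo1*-cKO, a 1.50-fold higher mean in WT. *Sirpa* went the other way, with 59.9 and 58.4 in WT and 80.9 and 83.4 in *Piezo1*-cKO, a 1.39-fold higher mean in *Piezo1*-cKO. *Sirpb1c* was at 62.8 and 74.4 in WT and at 71.6 and 71.7 in *Piezo1*-cKO, and its groups overlapped. As background for this contrast, 0.202% of all genes were called higher in WT, 0.995% were called in either direction, 50.7% passed on the adjusted p alone and 76.6% did not overlap between genotypes. Nothing is read from these shares for the members. The monocyte and macrophage markers summed to 120 to 122 FPKM in WT lung and to 149.6 to 150.1 in *Piezo1*-cKO lung, with *C1qa*, *Ccr2* and *F13a1* at 0 in both. The neutrophil markers summed to 90136 to 93553 and to 68642 to 73024. The dendritic cell markers summed to 242 to 250 in WT lung and to 228 to 232 in *Piezo1*-cKO lung. For the alveolar macrophage markers the sums were 2.65 to 3.39 and 3.71 to 5.70. The monocyte and macrophage sum and the alveolar macrophage sum were thus higher in *Piezo1*-cKO, as *Sirpa* was. The neutrophil and dendritic cell sums were lower, as *Sirpb1b* was. In both genotypes 2 of 8 monocyte and macrophage markers and 3 of 8 dendritic cell markers reached a mean of 1 FPKM. Of the 8 alveolar macrophage markers, 1 did in WT and 2 in *Piezo1*-cKO, and all 8 neutrophil markers did in both. The part of these cells in the lung values was not tested.

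The PB libraries of the same experiment are not its lung libraries, but the labels do not say whether they came from other mice. *Sirpb1b* was at 237 and 220 FPKM in WT and at 152 and 145 in *Piezo1*-cKO. Its mean was 1.54-fold higher in WT, a log2 difference of 0.62 ± 0.05 (limma adjusted p = 0.00039). *Sirpb1a* was at 35.6 and 31.3 in WT and 27.2 and 27.9 in *Piezo1*-cKO, 1.22-fold higher in WT (log2 difference 0.27 ± 0.07, limma adjusted p = 0.021). Both genes were higher in both WT libraries, and both stayed below the fold threshold. Without the WT PB library 1 the *Sirpb1a* difference was 0.18 (limma adjusted p = 0.19), and without the WT PB library 2 it was 0.36, so its passing the adjusted p rested on library 1.

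*Sirpa* was at 152 and 147 FPKM in WT PB and at 141 and 137 in *Piezo1*-cKO PB, a log2 difference of 0.10 ± 0.04 (limma adjusted p = 0.088). *Sirpb1c* was at 97.5 and 111 in WT and at 114 and 120 in *Piezo1*-cKO (-0.16 ± 0.07, limma adjusted p = 0.089). With limma, 0 of the 4 genes were called in PB, where 3.65% of all genes were, and 2 had an unadjusted p below 0.05. limma-voom on the recovered reads also called 0, with an unadjusted p below 0.05 for 4. On the adjusted p alone 2 of 4 passed, where 49.7% of all genes did. For all 4 genes the PB groups did not overlap, as for 77.3% of genes.

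The PB *Piezo1*-cKO libraries also differed in erythroid markers. The 4 markers summed to 11.0 to 11.7 FPKM in WT PB and to 564 to 572 in *Piezo1*-cKO PB. In lung the same sum was 1.99 to 2.35 in WT and 0.103 to 1.48 in *Piezo1*-cKO. The monocyte and macrophage markers summed to 170 to 174 in WT PB and 160 to 167 in *Piezo1*-cKO PB, and the neutrophil markers to 133924 to 137629 and to 111725 to 126665. Their part in the PB differences was not tested.

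**Figure D3:**
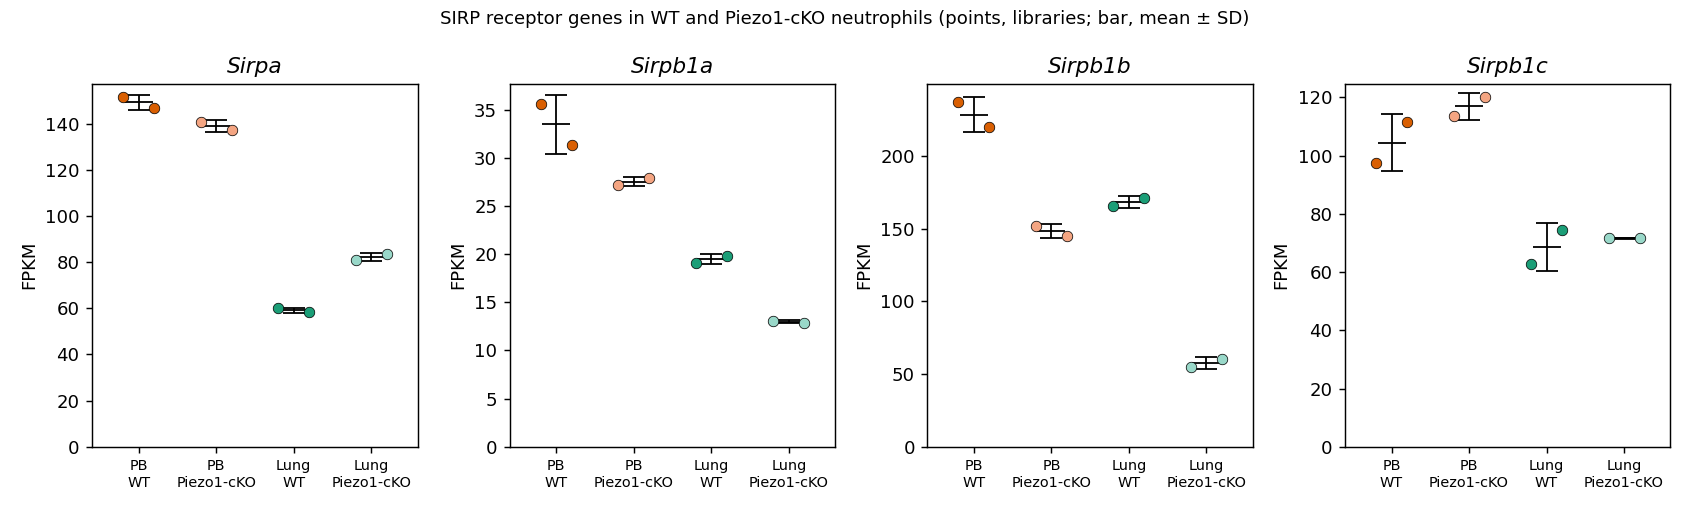
FPKM (y axis) of each SIRP receptor gene in the 8 libraries of the Piezo1 experiment, by tissue and genotype (x axis). Points are libraries, and bars are the mean ± SD of 2. *Sirpb1b* is lower in *Piezo1*-cKO than in WT in both tissues, down to 54.8 and 60.5 in lung, whereas *Sirpb1c* is not.

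Within libraries, *Sirpa* over *Sirpb1b* was 0.362 and 0.341 in WT lung and 1.48 and 1.38 in *Piezo1*-cKO lung. In PB it was 0.640 and 0.668 in WT and 0.926 and 0.945 in *Piezo1*-cKO. *Sirpb1b* made up 66.9% and 64.5% of the *Sirpb1* sum in WT lung and 39.3% and 41.7% in *Piezo1*-cKO lung. In PB it made up 64.0% and 60.6% in WT and 51.9% and 49.4% in *Piezo1*-cKO. The WT shares were thus all above the *Piezo1*-cKO shares in both tissues. The sum itself was 247 and 266 FPKM in WT lung against 139 and 145 in *Piezo1*-cKO lung, and 370 and 363 in WT PB against 293 and 293 in *Piezo1*-cKO PB.

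**Figure D4:**
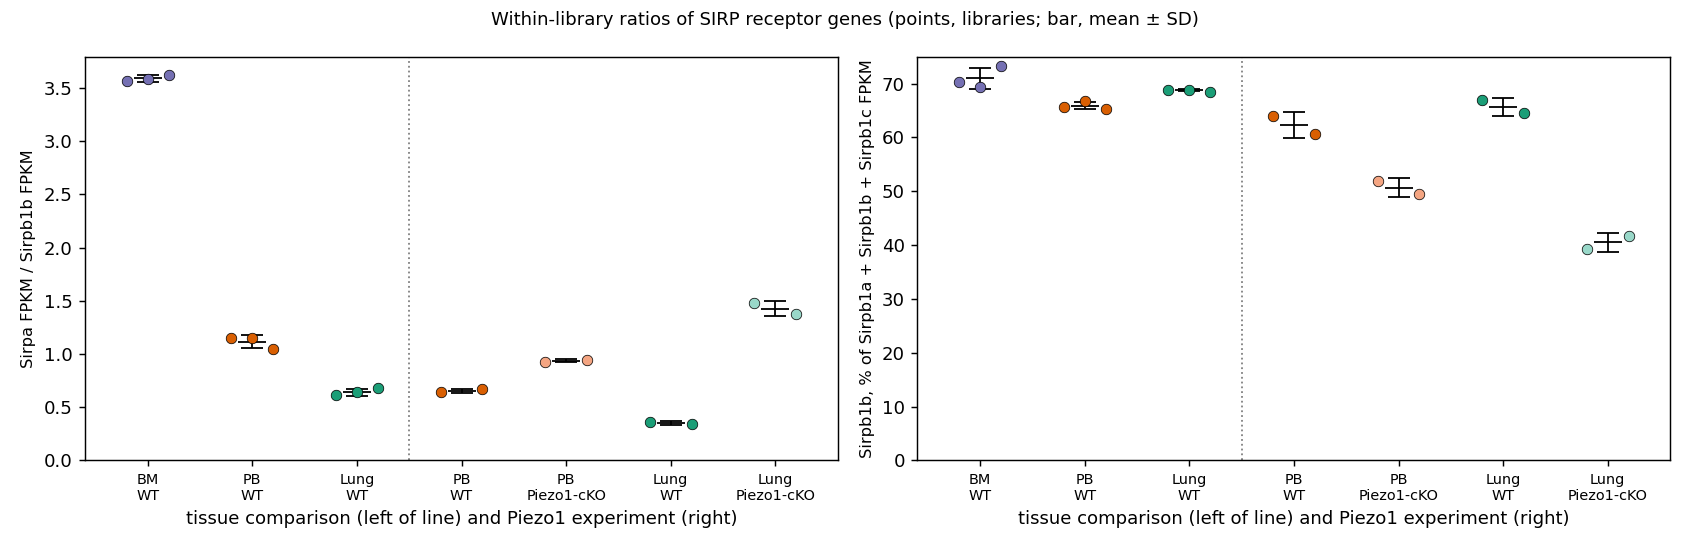
Ratio of *Sirpa* to *Sirpb1b* FPKM (left) and share of *Sirpb1b* in the summed *Sirpb1* FPKM in percent (right) in each of the 17 neutrophil libraries, by group (x axis). Points are libraries, and bars are the mean ± SD. The share is 39.3% and 41.7% in *Piezo1*-cKO lung, the lowest of the 7 groups.

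The lung and PB values of each genotype can be set side by side. *Sirpb1b* was 1.36-fold higher in PB than in lung in WT and 2.57-fold higher in *Piezo1*-cKO. *Sirpa* was 2.52-fold higher in PB in WT and 1.69-fold higher in *Piezo1*-cKO. *Sirpb1c* was 1.52-fold and 1.63-fold higher in PB. These folds share the libraries of the genotype contrasts, and their differences between genotypes were not tested.

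In whole lung the 4 genes were far less abundant than in sorted neutrophils, in a table that was normalized separately. *Sirpa* was at 25.5, 11.0 and 16.2 FPKM in control lungs and 12.8, 16.5 and 11.1 in PMN deletion lungs. *Sirpb1b* was at 4.18, 3.65 and 3.37 in control and 3.44, 2.99 and 2.41 in PMN deletion. *Sirpb1c* was at 4.68, 4.97 and 5.10 in control and 3.62, 4.74 and 3.31 in PMN deletion, and *Sirpb1a* at 3.52, 2.79 and 2.36 and at 3.36, 2.12 and 0.961. The groups overlapped for all 4 genes, whereas those of 17.4% of genes did not. Fewer cells of a type and less RNA per cell cannot be told apart in such tissue.

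With limma, 0 of the 4 genes were called in whole lung (adjusted p below 0.05 and a log2 fold change above 0.5), where 0.00715% of all genes were, and 1 had an unadjusted p below 0.05. The log2 differences of control over PMN deletion were 0.27 to 0.37, with limma adjusted p from 0.44 to 0.74, against a median of 0.04 over all genes. Single libraries moved these values: *Sirpa* was at 0.0085 without control library 1 and at 0.58 without control library 2, and *Sirpb1a* at 0.64 without PMN deletion library 1 and at 0.065 without PMN deletion library 3. *Sirpb1b* was at 0.17 without PMN deletion library 3. Within whole lung *Sirpb1b* made up 30.4% to 36.1% of the *Sirpb1* sum.

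The partners of the receptors were read from lists of known genes. On the ligand side, *Cd47*, the ligand of SIRPα, was at 65.8 ± 1.90 FPKM (SD, n = 3) in BM, 44.6 ± 0.921 in PB and 37.3 ± 0.924 in lung, and was called in none of the tissue comparisons. *Thbs1*, which encodes thrombospondin-1, a secreted ligand of CD47, was at 2906 ± 30.3 FPKM in lung, 21.4 ± 3.09 in PB and 86.9 ± 1.99 in BM. It was called in all 3 comparisons (log2 differences 7.03 for lung against PB, 5.05 for lung against BM and -1.98 for PB against BM). It was also called in PB of the Piezo1 experiment, at 5.51 and 5.93 FPKM in WT and 1.44 and 1.56 in *Piezo1*-cKO (1.43 ± 0.10, limma adjusted p = 0.00027). These were the only calls among the 3 genes of this list that passed the filter in neutrophils. Of all genes, 27.2% were called in lung against PB, 45.9% in lung against BM and 22% in PB against BM. Between genotypes 3.65% were called in PB and 0.995% in lung.

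Of 10 tested genes for phosphatases, adaptors and kinases that act with SIRPα, 1 was called lower in lung than in PB, 1 higher and 2 lower in lung than in BM and none in PB against BM or between genotypes, against 27.2%, 45.9% and 22% of all genes in lung against PB, lung against BM and PB against BM, and 3.65% and 0.995% between genotypes in PB and lung. *Ptpn6*, which encodes SHP-1, was at 144 ± 3.12 FPKM in lung, 459 ± 2.90 in PB and 298 ± 3.13 in BM. It was lower in lung than in PB by a log2 difference of -1.67 ± 0.05 (-1.13 relative to the median gene), and lower than in BM by -1.05 ± 0.02 (-0.34 relative to it). *Ptpn11*, which encodes SHP-2, was at 7.67 ± 0.411 in lung, 12.0 ± 0.367 in PB and 20.3 ± 0.153 in BM, and was called lower in lung than in BM (-1.30 ± 0.05, and -0.59 relative to the median gene). *Jak2*, a cytokine receptor kinase, was called higher in lung than in BM (1.55 ± 0.04).

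Of 8 tested genes of the DAP12 branch, none was called in lung against PB or PB against BM, where 27.2% and 22% of all genes were. In lung against BM, where 45.9% of all genes were called, 1 of the 8 was. It was *Syk*, the kinase that binds phosphorylated DAP12, at 349 ± 10.8 FPKM in lung, 200 ± 11.3 in PB and 122 ± 1.94 in BM (log2 difference 1.51 ± 0.03). *Tyrobp*, which encodes DAP12, was at 2753 ± 159 in lung, 3478 ± 259 in PB and 1776 ± 48.7 in BM, the same order as the *Sirpb1* genes. Its difference of PB over BM, 0.97 ± 0.07, fell just short of the threshold. None of the 7 genes tested in the Piezo1 experiment was called, where 3.65% of all genes were in PB and 0.995% in lung. *Tyrobp* differed by 0.05 ± 0.04 in PB (limma adjusted p = 0.26).

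Of 7 other DAP12-coupled receptors tested, 1 was called higher and 4 lower in lung than in PB, 1 higher and 2 lower in lung than in BM, and 1 higher and 1 lower in PB than in BM, beside 27.2%, 45.9% and 22% of all genes. *Trem1*, an amplifier of inflammatory signals, was at 856 ± 10.3 FPKM in lung, 212 ± 5.27 in PB and 84.8 ± 1.56 in BM. *Cd300lb* was at 50.6 ± 1.34, 257 ± 0.899 and 183 ± 1.76. *Pilrb2* was also called lower in lung than in PB (-1.05 ± 0.06) and in BM (-1.24 ± 0.03), and *Clec5a* lower in PB than in BM (-1.10 ± 0.06).

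Of 11 tested inhibitory receptors with ITIM motifs, 1 was called higher and 2 lower in lung than in PB, 2 higher and 5 lower in lung than in BM, and 1 higher and 5 lower in PB than in BM, beside the same 27.2%, 45.9% and 22% of all genes. *Lilrb4a* was called higher in lung than in PB (1.22 ± 0.17). *Ceacam1* was called lower in PB than in BM (-2.32 ± 0.05) and lower in lung than in BM (-2.80 ± 0.04), as was *Clec4a2* (-1.91 ± 0.06 and -2.57 ± 0.06). *Clec12a* was called lower in PB than in BM (-1.60 ± 0.05), and *Milr1* lower in lung than in BM (-2.63 ± 0.06). *Milr1* (-1.34 ± 0.08) and *Siglece* (-1.26 ± 0.05) were called lower in lung than in PB.

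The genes whose levels ran most like each member were found over the 17 neutrophil libraries, by Pearson's r of log2(FPKM + 1) centred within each experiment, among 8694 genes. These libraries share tissues and experiments, and r is a description. *Il17ra* (r = 0.997), *Ndst1* (0.995) and *Slc35a5* (0.993) were most like *Sirpa*. *Gngt2* (0.986), *H1f2* (0.985) and *Cd300c2* (0.984) were most like *Sirpb1a*, and *Ctsa* (0.989), *Lair1* (0.985) and *Pla2g7* (0.985) most like *Sirpb1c*. For *Sirpb1b* they were *Sirpb1a* (0.940), *Rps27* (0.938) and *Fau* (0.914), so its closest match was lower than those of the other members. Among the members, r was 0.952 between *Sirpb1a* and *Sirpb1c*, 0.819 between *Sirpb1b* and *Sirpb1c* and 0.112 to 0.209 between *Sirpa* and the *Sirpb1* genes.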

How the data were processed

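Bulk RNA-Seq of sorted neutrophils (17 libraries) and whole lung (6 libraries) was used. The authors processed reads with fastp, HISAT2 and HTSeq (mm10, per the labels) and deposited FPKM per gene and library. Versions, strand and the treatment of reads matching several genes are not given in the sources used here. The labels name a SMARTER kit and the study's methods a VAHTS kit. Columns holding the authors' own group means, fold changes and p-values were not used.

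Groups follow the labels. For each comparison, limma-trend (limma 3.58.1, R 4.3.3) was fitted to log2(FPKM + 1) of the 2 groups concerned. Genes needed 1 FPKM or more in 3 libraries (2 for the Piezo1 experiment), and p-values were adjusted after Benjamini and Hochberg. A gene was called when its adjusted p was under 0.05 and its log2 fold change exceeded 1 in size (0.5 for whole lung). Differences are first group minus second, and with 2 libraries per group the errors rest on variance shared across genes. FPKM are not scaled to a fixed total, so the median of all genes is given. Reads were recovered as the whole numbers behind the FPKM (tolerance 0.02 reads plus a relative 3e-09), for 100% of detected genes. In simulated data, 200 genes were changed by 2 log2 units, up or down. Of these, 96% to 100% were recovered, with 7 false calls for whole lung and 0 elsewhere. Smaller differences, such as those of the members in whole lung and between genotypes in PB, were not simulated.

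The members and lists were chosen with earlier results of these data known. Named genes are the members, *Piezo1*, *Ly6g*, *Cd47*, *Ptpn6*, *Ptpn11*, *Tyrobp*, up to 3 called genes per list and comparison, and the 3 genes most like each member. The level of 1 marker gene is not reported here. Sequences and positions are from GENCODE M21 (GRCm38). Alternatives were a pseudocount of 0.1, no filter, rescaled FPKM, a replicate block, the adjusted p alone, all libraries in 1 fit, limma-voom and each library left out. limma-voom and the fit of all libraries were not run for whole lung.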

Additional observations from a re-analysis of the deposited data

Results flagged for a closer look

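The *Sirpa* values of WT and *Piezo1*-cKO stood in opposite order in the 2 tissues of the Piezo1 experiment: both WT libraries were below both *Piezo1*-cKO libraries in lung (log2 difference -0.47, a contrast given without a test) and above both in PB (0.10, which did not pass, limma adjusted p = 0.088). In PB the groups did not overlap for 77.3% of genes. The difference between tissues was not tested. Groups of 2 or 3 libraries are too small for a search for outlying samples.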

How the results depend on the processing

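The number of members called was 1 for lung against PB, 3 for lung against BM, 3 for PB against BM, 0 for WT against *Piezo1*-cKO in PB and 0 for whole lung, and leaving out each library in turn gave these same numbers. Rescaling FPKM by the median ratio gave 0 for lung against PB, and the adjusted p alone gave 4 there and 2 for the genotypes in PB. The genotypes in lung are left out of these counts, since that contrast is treated as the one that chose the members. Of the members' log2 differences, rescaling turned *Sirpb1b* (0.19) and *Sirpb1c* (0.014) in lung against PB and *Sirpb1c* (0.045) for the genotypes in lung. Without the WT lung library 1 the last was 0.055, and over the libraries left out it ranged from -0.19 to 0.055. The cause was not tested. Replicate numbers gave no sign of pairing in the comparisons fitted, with correlations of same-numbered deviations from -0.09 to 0.06. With 2 libraries per group the deviations mirror each other, so pairing cannot be judged there. Pairing of lung with PB in the Piezo1 experiment was not examined. A replicate block left the members called at 1, 3, 3, 0 and 0 in the tested comparisons. In PB between genotypes, 2 members had an unadjusted p below 0.05, against 3 with the block, rescaling, a pseudocount of 0.1 or all libraries in 1 fit, 4 with limma-voom and 1 without the WT PB library 1.

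Counts over all genes moved more. In PB, 265 genes were called between genotypes, against 672 with a pseudocount of 0.1, 734 with limma-voom, 3607 on the adjusted p alone and 174 without the PB WT library 1. In lung, 64 became 332, 378 and 3265. The adjusted p alone raised 2063 to 6479 for lung against PB, 3777 to 7628 for lung against BM and 1811 to 6023 for PB against BM. In whole lung 1 gene was called, 5 with the block, 4 with a pseudocount of 0.1, 0 with no filter and 0 to 12 with a library left out. Rescaling changed genes called higher and lower from 587 and 1476 to 920 and 466 for lung against PB, and from 812 and 2965 to 1563 and 1174 for lung against BM. For the genotypes in lung it changed 13 and 51 to 18 and 35.

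Of the 12 genes most like the members, 5 were kept after rescaling and 7 to 12 with a library left out, the fewest without the PB library 3 of the tissue comparison. Read sharing among the *Sirpb1* copies limits their single levels, and the depth of whole lung is unknown.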

Other observations

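The genes beside the members were read after their values were seen. *Gm9733* and *Gm5150* flank the *Sirpb1* genes on chromosome 3, and none of their 150-base windows occurs in another gene. *Gm5150* had the same order as the *Sirpb1* genes, at 60.5 ± 2.15 FPKM (SD, n = 3) in BM, 252 ± 12.3 in PB and 134 ± 7.21 in lung. It was called higher in PB than in BM (log2 difference 2.04 ± 0.06, limma adjusted p = 3.8e-08). *Gm9733* was at 38.3 ± 2.36 in BM, 83.1 ± 5.92 in PB and 52.4 ± 3.26 in lung. In the Piezo1 experiment *Gm5150* was at 183 and 199 FPKM in WT lung against 157 and 143 in *Piezo1*-cKO lung, and at 459 and 474 in WT PB against 375 and 380 in *Piezo1*-cKO PB (0.30 ± 0.04, limma adjusted p = 0.0012). *Gm9733* overlapped between genotypes in PB.

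*F830045P16Rik*, listed by RefSeq with the synonym *Sirpb3*, lies beside *Sirpa* on chromosome 2 and had few reads. In PB it had 44 and 41 reads in the WT libraries and 0 and 2 in the *Piezo1*-cKO libraries. It passed the filter on low values only through the WT libraries, so no test is given. In lung it had 14 and 17 reads in WT and 16 and 9 in *Piezo1*-cKO.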
